A study of Mus musculus with 12 samples.

Results

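The genes of chemokines and chemokine receptors were followed through the cell types of the mouse liver before and after birth. Members were all rows of the deposited gene lists whose symbol began with Ccl, Cxcl, Xcl, Cx3cl, Ccr, Cxcr, Cx3cr, Xcr or Ackr followed by a digit. This rule used no measured value and found 67 rows with 62 symbols, 44 rows of ligands and 23 of receptors, among 31053 genes listed at E16.5 (an embryonic day) and 22597 listed at P3 (a postnatal day). Of the 67 rows, 11 had 0 UMIs at both stages (copies of Ccl19, Ccl21 and Ccl27 genes, and Ccl26), and 26 had fewer than 100 UMIs in all 9 libraries. A UMI, or unique molecular identifier, marks one captured RNA molecule. Levels are given as CPM, the UMIs of a gene scaled to 1000000 UMIs of a class in one library, and are compared mainly within a gene. Values with ± are means and SDs over libraries (n = 5 at E16.5 and 4 at P3, and 4 at both stages for T and NK cells). A mean of 20 CPM in at least 1 cell class at either stage was reached by 30 members, of which 29 (15 ligands and 14 receptors) are described by their values. The members just inside that limit were Ccr3 at 29.9, Cxcl1 at 28.4 and Cxcr5 at 24.9 CPM, and those just outside were Ccl25 at 17.1, Ccl7 at 16.3 and Ccl21a at 14.9 CPM. The other 26 rows with a UMI are given by counts, with a few values where a result turns on them.

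The study profiled whole livers of Jag1+/+, Jag1Ndr/+ and Jag1Ndr/Ndr mice at E16.5 and P3 by droplet single-cell RNA sequencing. Ndr (Nodder) is a missense allele of Jag1, which encodes a Notch ligand, so carriers have it in every cell and no Cre or transgene is involved. All animals came from crosses of heterozygotes, were given no agent, and the design lists 2 individuals per genotype and stage. Homozygous pups at P3 were picked by jaundice, livers at E16.5 alone were digested with TrypLE Express added to the medium, and dead cells were removed with magnetic beads.

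Fewer libraries than labels could be used. A single E16.5 matrix was deposited under 2 labels, Jag1+/+ replicate 2 and Jag1Ndr/+ replicate 2. It is called the shared library, and E16.5 thus had 5 libraries. At P3, 6 of 15 pairs of matrices shared at least 53.4% of the barcodes of the smaller one, against at most 1.72% in other pairs. The P3 libraries used were therefore A (the matrix labelled Jag1+/+ replicate 1) and B (labelled Jag1+/+ replicate 2), both of unclear genotype, C (labelled Jag1Ndr/Ndr replicate 1, without the barcodes of A) and D (labelled Jag1Ndr/+ replicate 1). After barcodes under 1000 UMIs or over 15% mitochondrial UMIs were removed, there were 18357 to 29034 barcodes per library at E16.5 and 15024 to 21504 at P3, with 141824631 to 253187351 and 72777843 to 188652014 UMIs. Values by library are listed in the order Jag1+/+ replicate 1, shared library, Jag1Ndr/+ replicate 1, Jag1Ndr/Ndr replicates 1 and 2 at E16.5, and A, B, C, D at P3. The p-values measure the spread between these libraries.

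Cells were clustered within each stage with the member genes left out of the clustering, and clusters were named from marker lists, so that each class name stands for cells that are like that type. Some classes held RNA of other cells. Summed basophil and mast cell markers in the class of that name were 1022 to 3686 CPM at E16.5 and 12484 to 16979.9 CPM at P3, while stem and progenitor markers there were 697 to 847 CPM at E16.5 and 158 to 252 CPM at P3. Conventional dendritic cells formed a class of their own at P3 alone, and their markers in the monocyte class were 568 to 1007 CPM at E16.5 and 129.9 to 174 CPM at P3. The P3 mesenchymal class was led by Ins2 and Ins1, hormone genes of the pancreatic islet, which came from library B (50843 CPM of islet genes, against at most 1.03 CPM in other libraries). The P3 plasmacytoid dendritic class was also led by the progenitor genes Cd34 and Hmga2. Later B cells formed a class at P3 alone. With doublets counted, the E16.5 B precursor class joined clusters led by Igkc and Ighm (3886 cells) and by Vpreb1 and Vpreb3 (6024 cells). At P3 it joined clusters led by Igll1 and Vpreb1 (1174 cells) and by Il7r and Vpreb3 (4624 cells). The part of this makeup in the B precursor results was not tested. T and NK cells were few at E16.5 (10 to 37 cells per library, and the library with 10 was left out) and 229 to 277 at P3.

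Chemokines are small secreted proteins that bind to matrix sugars and guide leukocytes along gradients. Their receptors are G protein-coupled receptors on the migrating cells, which trigger adhesion and steer movement, while atypical receptors (Ackr genes) bind chemokines without that signal and remove or carry them. Homeostatic chemokines such as CXCL12 hold blood-forming cells in their niches, and inflammatory chemokines are switched on within hours by NF-kappa B or interferon signals. The fetal liver is the main blood-forming organ before birth, so its chemokine sources and receptors are spread over stromal, endothelial, macrophage and developing blood cells.

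By the limit of 20 CPM each described member was high in at least 1 class, and most had high means in only a few classes. The heat map of class means shows ligands and receptors on the same log scale at both stages. Among the ligands, Cxcl12 was highest in mesenchymal cells (means of 249.8 ± 73.2 CPM at E16.5 and 253 ± 65.1 CPM at P3), Cxcl5 in megakaryocytes (36.2 ± 22.8 CPM and 46.9 ± 12.9 CPM) and Ccl5 in T and NK cells. Among the receptors, Ccr2 was highest in monocytes, Cxcr2 in neutrophils, Cx3cr1 in macrophages and Cxcr6 and Cxcr3 in T and NK cells. Erythroid cells, the most numerous class, held no member above 38.4 CPM, the mean of Ackr1 there at P3. The class with the highest mean did not always hold most UMIs of a gene. Of E16.5 Cxcl12 UMIs, hepatocytes held 34.9%, mesenchymal cells 32.5% and erythroid cells 19.1% (medians over libraries). At P3 these medians were 19.9%, 35.6% and 11.7%.

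**Figure D1:**
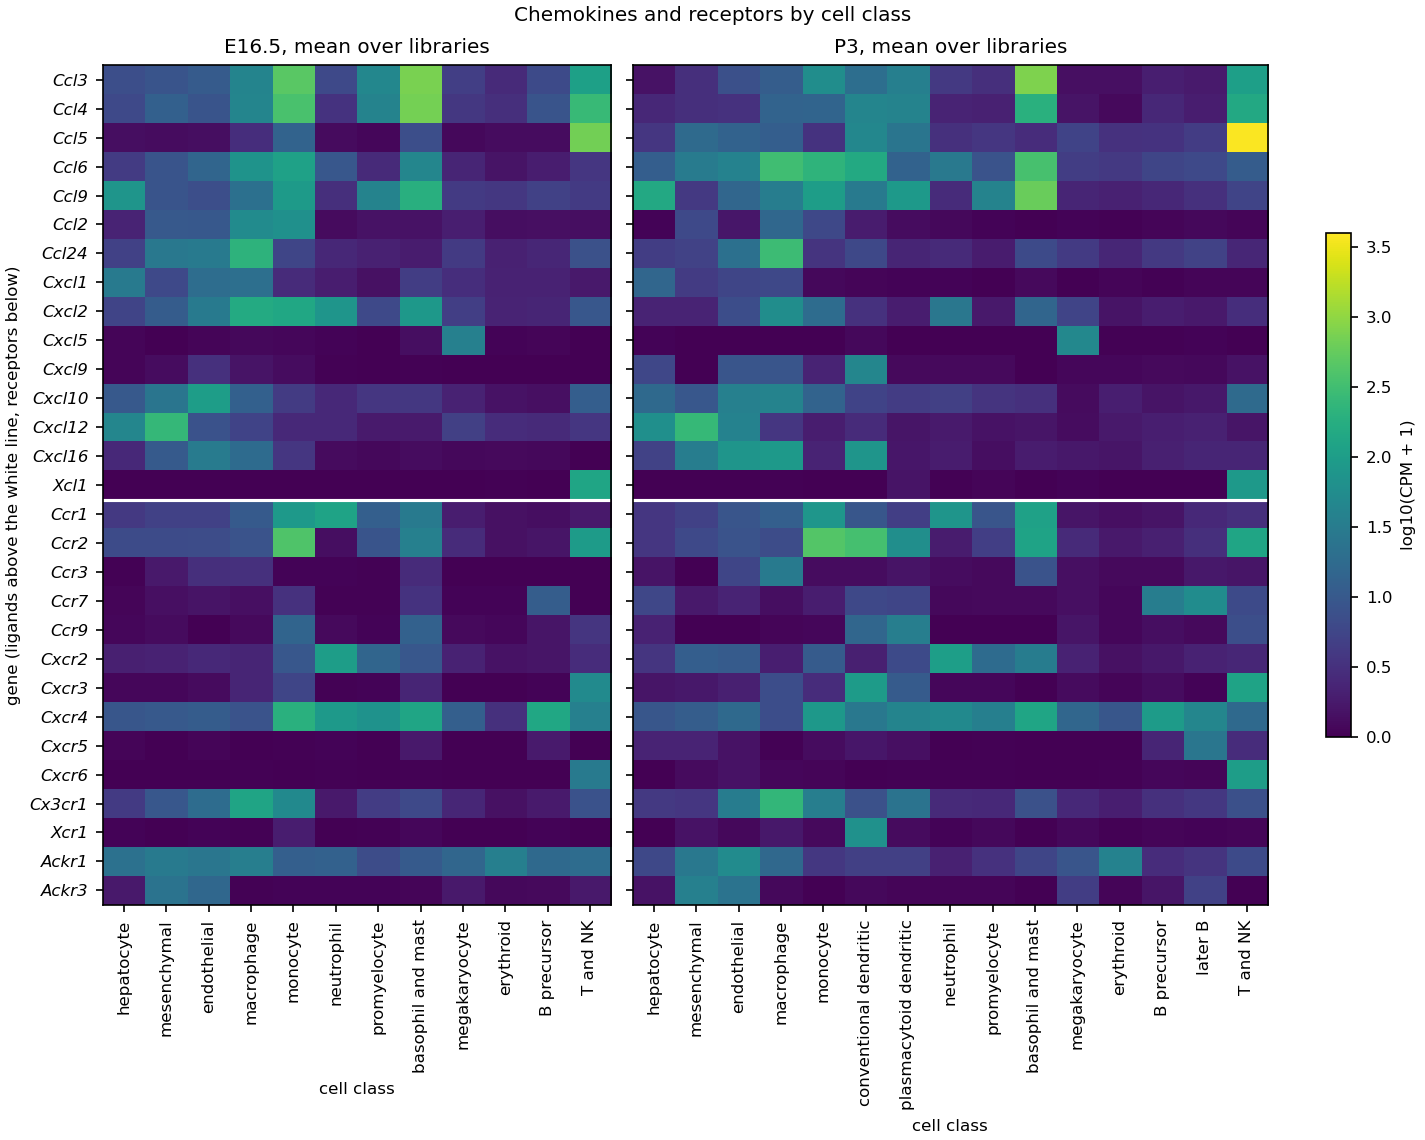
Mean level of the 29 described members in each cell class at E16.5 (left) and P3 (right), as log10(CPM + 1) averaged over libraries. Ligands stand above the white line and receptors under it, and most rows have 1 to 3 bright classes, such as Cxcl12 in mesenchymal cells and Ccl5 in T and NK cells.

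The comparison of P3 with E16.5 asked which members changed between the stages within a class. Over 192 pairs of a class and a member, 37 rose and 53 fell in edgeR's quasi-likelihood test (adjusted p under 0.05, 5 against 4 libraries), or 46.9%. Over all 119136 pairs of a class and a gene, 44.1% passed, 22.0% upward and 22.2% downward, so the members' share was near that of all genes. Ligands passed in 61 of 119 pairs (25 up, 36 down) and receptors in 29 of 73 (12 up, 17 down). The median log2 difference was -0.42 over ligand pairs and 0.003 over receptor pairs, beside 0.003 over all pairs. In monocytes 12 of 23 members tested fell and 2 rose (median -1.30), beside 25.4% and 25.1% of all genes in that class. In macrophages 6 rose and 8 fell of 26 (median 0.03), beside 24.3% and 24.7% of all genes. The 25 named pairs below were picked among those that passed and whose libraries did not overlap between the stages. Lack of overlap in a named pair is therefore no separate result, and its share over all genes was not counted. Stage cannot be told apart from the TrypLE digestion, the software version in the file headers (3.1.0 at E16.5 and 3.0.2 at P3) or the gene list used for counting, each of which differed between the stages in every library. Genotypes were also mixed unequally: 2 of 5 E16.5 libraries were Jag1Ndr/Ndr. At P3 only C was labelled so, and A and B were unclear. The stage fit had no term for genotype.

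In the sum over all barcodes of a library, 16 of 41 members rose and 8 fell, or 58.5%, beside 54.0% of 14504 genes (27.5% upward and 26.5% downward). In these sums, more cells of a type and more RNA per cell cannot be told apart. The 3 members that rose most belong to lymphocytes. Ccl5, a T and NK cell ligand, went from 2.23 to 71.6 CPM (log2 difference 4.29, SE 0.49, adjusted p = 0.000106), Cxcr6 from 0.0911 to 1.69 CPM (log2 difference 3.56, SE 0.41, adjusted p = 4.75e-05) and Ccr6, a receptor of B cells, from 0.0448 to 0.875 CPM (log2 difference 3.73, SE 0.34, adjusted p = 1.37e-05). T and NK cells were 0.0612 to 0.232% of named cells at E16.5 and 1.32 to 2.02% at P3. Among the 8 that fell, Ccl4, Ccl3 and Cxcl1 did so by 2.93, 2.38 and 3.15 on the log2 scale, which is not a ranking of the falls. Cxcl3 also fell, from few UMIs (236 at E16.5 and 10 at P3 over all libraries). Scaling by total UMIs in place of TMM moved the median log2 difference of all genes by 0.585 in the whole liver and by -0.0124 to 0.669 within classes, and changed the sign of no member that had passed. With it 97 pairs passed within classes (46 up, 51 down) and 28 members in the whole liver (21 up, 7 down). Under that scaling 30.1% of all pairs passed upward and 13.6% downward, and 48.2% and 8.13% of genes in the whole liver.

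**Figure D2:**
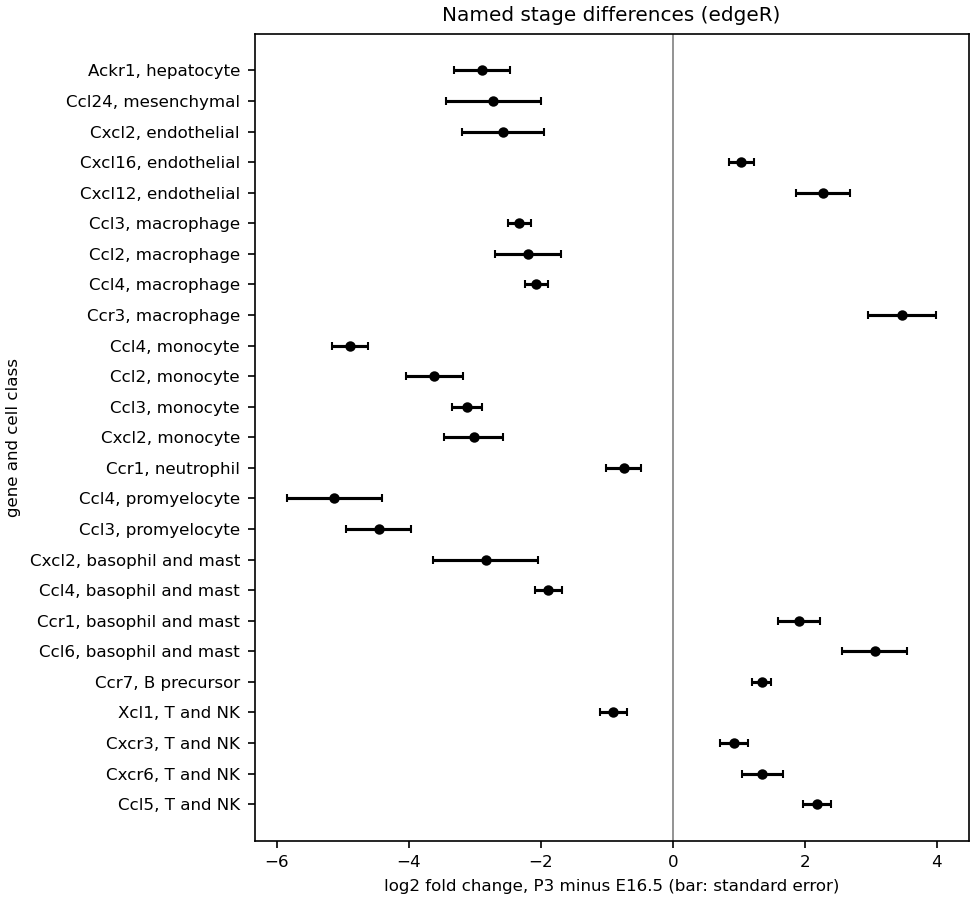
Log2 difference (P3 minus E16.5) of the 25 named pairs of a member and a class, with bars for 1 standard error from edgeR. The 9 pairs right of 0 were higher at P3 and the 16 left of 0 were lower, from 3.48 for Ccr3 in macrophages to -5.12 for Ccl4 in promyelocytes.

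CXCL12, made by stromal cells, is the ligand of CXCR4 and of the atypical receptor ACKR3. In mesenchymal cells Cxcl12 (chr6:117168535-117181367) measured 276, 363, 179, 231 and 199.6 CPM at E16.5 and 242, 168, 280.3 and 322 CPM at P3. The stages overlapped and the difference did not pass the test (log2 difference -0.42, SE 0.20, adjusted p = 0.104). Library B, the one with islet genes in this class, had the lowest P3 value. Endothelial Cxcl12 was 12.9, 3.13, 7.68, 5.12 and 6.31 CPM at E16.5 and 30.7, 39.2, 65 and 17.6 CPM at P3, and every P3 library was above every E16.5 library (log2 difference 2.28, SE 0.40, adjusted p = 0.000683). With finer clusters this difference was -0.28 (adjusted p = 0.687). Hepatocytes were at 43.3 ± 14.4 CPM and 61 ± 15.4 CPM. Cxcr4 passed in both directions: it fell in B precursors (139 to 93.9 CPM, log2 difference -0.85, adjusted p = 0.00615) and in monocytes (192 to 81.3 CPM, -1.30, adjusted p = 0.0214), and rose in erythroid cells (2.2 to 8.25 CPM, 1.23, adjusted p = 0.00441). Scaled by total UMIs, Cxcr4 fell in 1 class, monocytes, against 2 with TMM, and no direction changed. The part of the makeup of the B precursor class in its Cxcr4 fall was not tested. Basophil and mast cells held 129.9 ± 57.4 CPM and 130.4 ± 82.6 CPM. Class means of Ackr3 exceeded 5 CPM in mesenchymal and endothelial cells alone. Mesenchymal cells held 22.7 ± 10.4 CPM and 35.5 ± 20.3 CPM, and endothelial cells 15 ± 3.24 CPM and 22.2 ± 13.4 CPM.

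CXCL16 is a membrane-bound ligand that keeps CXCR6-bearing T and NK cells in the liver sinusoids, and Cxcl16 rose in endothelial cells and macrophages while Cxcr6 rose in T and NK cells. Endothelial Cxcl16 was 35.1, 30.3, 31.1, 35.8 and 20.7 CPM at E16.5 and 57.4, 87.9, 91.7 and 62.6 CPM at P3 (log2 difference 1.04, SE 0.19, adjusted p = 0.000283). The stages did not overlap. In macrophages it was 25.2, 16.7, 13.3, 16 and 13.3 CPM at E16.5 and 90.6, 110.0, 56.1 and 89.3 CPM at P3 (log2 difference 1.97, adjusted p = 1.64e-05). It also rose in mesenchymal and erythroid cells and fell in monocytes (2.77 to 1.26 CPM, -1.20, adjusted p = 0.0197). Dendritic markers in the monocyte class were lower at P3 too, and with the dendritic cells apart, in finer clusters, monocyte Cxcl16 was 0.508 CPM at E16.5 and 1.41 CPM at P3, the opposite direction and not tested. The macrophage markers in the endothelial class were 1101 to 1742 CPM at E16.5 and 1975 to 2446 CPM at P3, and their part in the endothelial result was not tested. Cxcl16 overlaps Zmynd15 on the other strand and Cxcr6 overlaps Fyco1, so reads from the partners cannot be told apart where counting ignores strand. Other members overlap genes on their own strand, Ackr1 with Cadm3, Cx3cr1 with Gorasp1, Csrnp1 and Xirp1, and Ccr9 with Gm17200 and Gm17020. Strand cannot tell those reads apart, and how reads in such overlaps were counted is not given in the sources used here. Cxcr6 in T and NK cells was 36.8, 29.2, 38.2 and 15.4 CPM at E16.5 (without Jag1+/+ replicate 1) and 108, 58.8, 83.7 and 143 CPM at P3, without overlap (log2 difference 1.36, SE 0.30, adjusted p = 0.00184), and no other class had a mean above 1 CPM at either stage.

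The neutrophil-attracting ligands CXCL1, CXCL2 and CXCL3 act on CXCR2, and their genes lie near each other on chromosome 5 with Cxcl5 and Cxcl15. Cxcl2 (chr5:90903871-90905938) fell in 6 of 9 classes tested and rose in none, and Cxcl1 (chr5:90891241-90893115) in 4 of 5. Cxcl2 in monocytes was 169, 125, 114, 196 and 86 CPM at E16.5 and 22, 29.7, 7.13 and 11.5 CPM at P3, so that every P3 library was under every E16.5 library (log2 difference -3.02, SE 0.44, adjusted p = 0.000989). Endothelial Cxcl2 was 29.1, 27.5, 24.3, 12.8 and 51.6 CPM at E16.5 and 6.29, 6.76, 0 and 11.7 CPM at P3 (log2 difference -2.57, SE 0.62, adjusted p = 0.00798). With doublets kept the endothelial difference did not pass (adjusted p = 0.0803). In basophil and mast cells Cxcl2 was 42.5, 125, 120.3, 71.3 and 57.9 CPM at E16.5 and 10.4, 38.4, 0 and 6.57 CPM at P3 (log2 difference -2.83, SE 0.79, adjusted p = 0.0227), and the call was lost without P3 library A (adjusted p = 0.0777) or D (0.0511) and the difference was -3.66 without B. The markers of that class and of progenitors differed between the stages as given above, and their part was not tested. Macrophages held 159 ± 37.6 CPM and 56.6 ± 36.2 CPM of it (log2 difference -1.89, adjusted p = 0.000538). Cxcl3, whose class means never exceeded 2.29 CPM, fell in macrophages to 0.0322 CPM (adjusted p = 3.38e-05). Among class means Cxcl1 was highest in E16.5 hepatocytes (14.9, 47.9, 25.6, 10.9 and 42.8 CPM at E16.5) and fell in macrophages (19.9 to 5.04 CPM, -2.44, adjusted p = 0.00206) and endothelial cells (18.2 to 4.59 CPM, -2.54, adjusted p = 0.000177). Cxcl5 in megakaryocytes did not pass (0.10, adjusted p = 0.833).

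Because Cxcl1, Cxcl2 and Cxcl3 fell together, the 150 bases before their starts are shown, with the interferon-induced Cxcl10, which passed downward in no class (log2 differences from -2.69 to 1.78), and, from the chromosome 11 cluster, Ccl3. The sequences are RefSeq's (GRCm38.p6), written 5′ to 3′ on the gene's strand, with the kappa B match, the binding motif of NF-kappa B, in capitals.
Cxcl1 (chr5:90891095-90891244, plus strand): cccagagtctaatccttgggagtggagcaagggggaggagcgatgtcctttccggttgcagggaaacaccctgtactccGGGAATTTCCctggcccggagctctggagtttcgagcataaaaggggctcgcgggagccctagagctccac
Cxcl2 (chr5:90903749-90903898, plus strand): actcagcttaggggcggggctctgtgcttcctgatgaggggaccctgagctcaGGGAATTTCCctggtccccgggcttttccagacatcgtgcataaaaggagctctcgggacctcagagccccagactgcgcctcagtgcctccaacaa
Cxcl3 (chr5:90785951-90786100, plus strand): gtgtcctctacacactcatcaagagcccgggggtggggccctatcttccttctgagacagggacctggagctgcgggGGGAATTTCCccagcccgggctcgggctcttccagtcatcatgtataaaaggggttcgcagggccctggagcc
Cxcl10 (chr5:92348890-92349039, minus strand): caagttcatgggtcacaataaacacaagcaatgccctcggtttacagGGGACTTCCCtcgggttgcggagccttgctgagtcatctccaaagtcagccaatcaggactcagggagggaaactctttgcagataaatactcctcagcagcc
Ccl3 (chr11:83649379-83649528, minus strand): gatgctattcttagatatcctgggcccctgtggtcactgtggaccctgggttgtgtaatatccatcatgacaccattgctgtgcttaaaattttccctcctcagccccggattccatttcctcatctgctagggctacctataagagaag
RefSeq's promoter table held 46 of the 62 member symbols (21 of the 29 described), with 54 promoters. Cxcl1, Cxcl2 and Cxcl3 carry the same 10 letters, 71, 97 and 73 bases before RefSeq's start, and Cxcl10 carries a different match 103 bases before it. RefSeq's starts can differ from those of the gene spans in the text. The Cxcl2 window ends at 90903898, past the span's start at 90903871. A kappa B match on either strand was in 8 of the 54 member promoters (Ackr2, Ccl20, Ccl9, Ccr6, Cxcl1, Cxcl10, Cxcl2 and Cxcl3) and in 2.38% of all 32851 promoters over the same window. TATAAA was in 11 of 54 and 7.57% of all, and TGANTCA, the AP-1 motif, in 6 of 54 and 4.24%. Matches are letters in this window and do not show binding. Ccl3 has no kappa B match in its window. The part of these matches in the stage differences was not tested.

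CXCR2, the receptor of these ligands, was carried by neutrophils, at 106, 108, 66.7, 131 and 84.2 CPM at E16.5 and 110.2, 140.5, 65.3 and 102 CPM at P3. The libraries of the stages overlapped and the difference was 0.03 (adjusted p = 0.934). Neutrophil clusters differed from each other more than the stages did. At E16.5 mean Cxcr2 was 51.4 CPM in the cluster led by the granule gene Camp and 152 CPM in that led by Retnlg. At P3 it was 56.4 CPM in the cluster led by Chil3 and Camp, 119 CPM in that led by Csta2 and Ly6g, and 382 CPM in that led by Retnlg. Cxcl2 followed the same order, at 7.41 and 142 CPM at E16.5 and 0.563, 7.56 and 379.8 CPM at P3. Ccl6 was 374 CPM in the last of these clusters and 3.71 CPM in the first. The clusters were drawn from the same cells, so these are descriptions without a test.

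**Figure D3:**
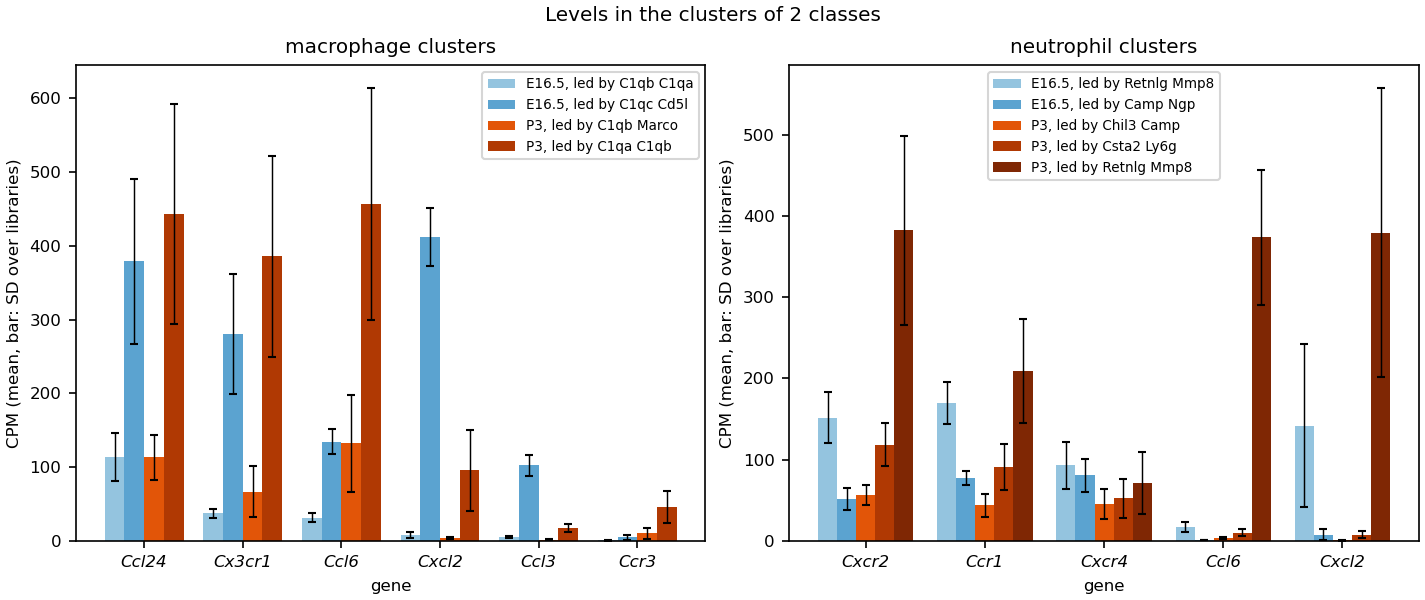
Mean CPM, with bars for 1 SD over libraries, of 6 members in the 4 macrophage clusters and 5 members in the 5 neutrophil clusters. Cxcr2 and Cxcl2 are highest in the P3 neutrophil cluster led by Retnlg, and Ccl24 and Cx3cr1 are highest in the macrophage clusters low in erythroid RNA.

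CXCL9 and CXCL10 are induced by interferon and attract cells through CXCR3. Endothelial Cxcl10 was 39.4, 71.9, 79.3, 257 and 52.6 CPM at E16.5 and 18.1, 35.2, 26.7 and 62.6 CPM at P3. One E16.5 library, Jag1Ndr/Ndr replicate 1, stood far above the others, and the stages overlapped (log2 difference -1.89, SE 0.75, adjusted p = 0.0798). In monocytes Cxcl10 rose from 3.28 to 13.2 CPM (log2 difference 1.78, adjusted p = 0.0149). Cxcl10 overlaps Art3 on the other strand. The highest E16.5 class mean of Cxcl9 was 2.15 CPM, in endothelial cells (0.539 to 5.12 CPM by library, highest in Jag1Ndr/Ndr replicate 1), and dendritic cells, separated with finer clusters, held 0 to 5.18 CPM. At P3 Cxcl9 was 21.9, 41.4, 15.8 and 95.1 CPM in conventional dendritic cells, a range in which library D was highest. In macrophages it rose from 0.557 to 7.91 CPM (3.19, adjusted p = 0.00401). Cxcr3 in T and NK cells was 51.5, 38.9, 59.6 and 58.4 CPM at E16.5 (without Jag1+/+ replicate 1) and 124, 141, 131 and 90.9 CPM at P3, without overlap (log2 difference 0.92, SE 0.21, adjusted p = 0.00172). It rose in macrophages as well (1.32 to 6.1 CPM) and fell in the monocyte class (4.65 to 1.9 CPM), which held dendritic markers at E16.5. In finer clusters, with the dendritic cells apart, monocyte Cxcr3 was 0.851 CPM at E16.5 and 1.84 CPM at P3, the opposite direction and not tested. P3 conventional dendritic cells held 95 ± 29 CPM.

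CCL2, CCL7 and CCL12 draw monocytes out of marrow and blood through CCR2. Ccl2 (chr11:82035571-82037453) fell in all 4 classes in which it was tested. In monocytes it was 49.5, 50.7, 41.3, 123 and 50.2 CPM at E16.5 and 7.33, 4.3, 4.68 and 4.09 CPM at P3, without overlap (log2 difference -3.61, SE 0.44, adjusted p = 0.000259). In macrophages it was 39.7, 39.1, 52.6, 97.1 and 42.9 CPM at E16.5 and 21.5, 22.6, 8.44 and 7.64 CPM at P3, again without overlap (log2 difference -2.19, SE 0.50, adjusted p = 0.00717). The highest value in both classes came from E16.5 Jag1Ndr/Ndr replicate 1. Without that library the differences were -3.22 and -1.88 (adjusted p = 1.11e-08 and 0.00555). Ccl7 and Ccl12 were macrophage genes at low level (16.3 and 9.77 CPM at E16.5) and did not pass. Ccl8, near them on chromosome 11, had macrophage means of 0.65 CPM at E16.5 and 6.49 CPM at P3. Its log2 difference was 2.66 in the 1 class tested, which passed with scaling by total UMIs and not with TMM. In the whole liver Ccl8 rose under both scalings. The difference of the receptor Ccr2 did not pass in monocytes. It was 420.4, 459, 314, 449 and 388 CPM at E16.5 and 391, 454, 403 and 478 CPM at P3 in monocytes, with overlap (log2 difference -0.01, adjusted p = 0.954), 348 ± 89.8 CPM in P3 conventional dendritic cells, and 94.3 ± 20.1 CPM and 131 ± 8.48 CPM in T and NK cells.

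CCL3, CCL4, CCL5, CCL6 and CCL9 bind CCR1. Their genes lie together on chromosome 11 and moved in opposite directions. Ccl3 (chr11:83647844-83649355) fell in 7 of 10 classes tested, Ccl4 (chr11:83662584-83664683) in 7 of 9, and neither rose in any, while Ccl6 (chr11:83587882-83593087) rose in 9 of 10 and fell in none. Ccl3 in monocytes was 579, 359, 459, 535 and 425 CPM at E16.5 and 77.1, 40.3, 62.9 and 51.3 CPM at P3 (log2 difference -3.11, SE 0.23, adjusted p = 1.58e-06). Ccl4 there was 419, 226, 389, 454 and 366 CPM at E16.5 and 12.7, 12.1, 17.7 and 10.8 CPM at P3 (log2 difference -4.89, SE 0.27, adjusted p = 2.52e-07). For both genes the lowest E16.5 library stood well above the highest P3 library, as the plot of values by library shows. In promyelocytes Ccl4 was 43.2, 15.3, 43.8, 76.8 and 21.4 CPM at E16.5 and 1.51, 1.27, 0.577 and 1.23 CPM at P3 (log2 difference -5.12, SE 0.72, adjusted p = 0.000799) and Ccl3 60.2, 23.5, 40, 67.8 and 34.1 CPM at E16.5 and 3.3, 0.926, 1.92 and 2.15 CPM at P3 (log2 difference -4.46, SE 0.49, adjusted p = 0.000134). With finer clusters these promyelocyte differences were -2.71 and -2.26 and the Ccl4 difference in monocytes was -3.98.

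In basophil and mast cells Ccl4 fell, Ccl6 and Ccl9 rose, and the difference of Ccl3 did not pass. Ccl3 was 515, 1213, 476, 822 and 667 CPM at E16.5 and 844, 647, 866 and 881 CPM at P3, with overlap (log2 difference 0.13, SE 0.21, adjusted p = 0.653). Ccl4 was 582, 871, 683, 860.1 and 550.1 CPM at E16.5 and 158, 178, 287 and 148 CPM at P3, without overlap (log2 difference -1.89, SE 0.20, adjusted p = 1.28e-06). Ccl6 in the same class was 19.7, 91.7, 19.7, 55.8 and 30.5 CPM at E16.5 and 306, 389, 447 and 296 CPM at P3, also without overlap (log2 difference 3.06, SE 0.49, adjusted p = 0.00178). Ccl9 rose there from 185 to 597 CPM (1.68, adjusted p = 2.44e-05). The higher level of basophil and mast markers and the lower level of progenitor markers at P3 moved with these results, and their part was not tested. Macrophage Ccl6 was 67.4, 72.1, 72.1, 61.4 and 72 CPM at E16.5 and 411, 405, 201 and 230.2 CPM at P3 (log2 difference 1.79, SE 0.26, adjusted p = 0.000154), and monocyte Ccl6 rose from 114 to 215 CPM (0.82, adjusted p = 0.00923). Ccl9 was also a hepatocyte gene (73.6 ± 25.6 CPM and 147 ± 29.2 CPM, 0.73, adjusted p = 0.00293).

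Ccl5 (chr11:83525778-83530518), a ligand stored by cytotoxic lymphocytes, was a T and NK cell gene. In the 4 E16.5 libraries with enough of these cells it was 633, 1031, 552 and 532 CPM, and at P3 3318, 3898, 4427 and 3704 CPM, so that every P3 library was above every E16.5 library (log2 difference 2.19, SE 0.21, adjusted p = 2.62e-06). Means of other classes were at or under 45.1 CPM, that of P3 conventional dendritic cells. One E16.5 library, Jag1Ndr/Ndr replicate 1, had 56 CPM in the monocyte class, 50.3% of its Ccl5 UMIs. With finer clusters these lay in its dendritic cells (201 CPM, against 0.516 to 17.3 CPM in the other E16.5 libraries), and P3 conventional dendritic cells were at 12.5 CPM. In T and NK cells Ccl3 was 112 ± 18.1 CPM and 108 ± 32.8 CPM and Ccl4 267 ± 117 CPM and 147 ± 78.8 CPM, and neither passed (adjusted p = 0.217 and 0.082).

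CCR1 is a receptor of phagocytes and granulocytes. In neutrophils Ccr1 was 129, 106, 106, 159 and 106 CPM at E16.5 and 90.4, 103, 44.3 and 63.6 CPM at P3, without overlap (log2 difference -0.74, SE 0.27, adjusted p = 0.042). This call was lost in 8 of the alternatives, with adjusted p from 0.0533 to 0.0859, among them leaving out E16.5 Jag1+/+ replicate 1, E16.5 Jag1Ndr/+ replicate 1, E16.5 Jag1Ndr/Ndr replicate 1, P3 library C or P3 library D. In basophil and mast cells Ccr1 was 19.7, 44.4, 16.2, 40.4 and 25.7 CPM at E16.5 and 109, 139.9, 66.2 and 138 CPM at P3 (log2 difference 1.91, SE 0.32, adjusted p = 0.000639). Basophil and mast markers in that class were higher at P3 too, and their part was not tested. Monocytes held 87.3 ± 7.71 CPM and 77.4 ± 21.2 CPM.

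**Figure D4:**
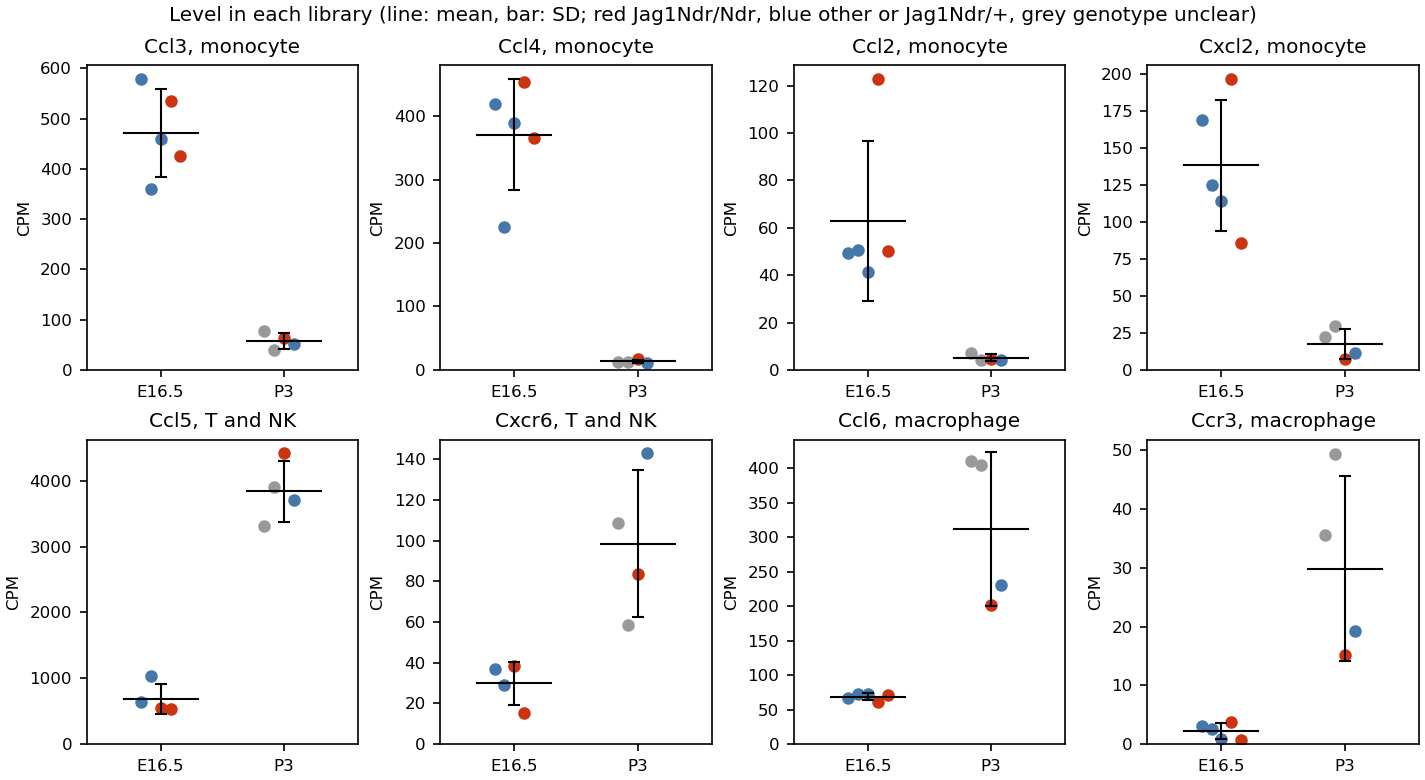
CPM of 8 pairs of a member and a class in each library (points), with the mean (line) and 1 SD (bar) per stage, on linear axes from 0. In monocytes Ccl3, Ccl4, Ccl2 and Cxcl2 are lower in all 4 P3 libraries than in all 5 E16.5 libraries, and Ccl5 and Cxcr6 in T and NK cells and Ccl6 and Ccr3 in macrophages are higher. Named pairs were picked for lack of overlap, so that lack is no separate result.

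The dendritic cells could be compared between stages with finer clusters alone. The E16.5 cluster had 3 conventional and 2 plasmacytoid dendritic markers among its 10 leading genes. At P3 the conventional cluster had 4 and 1, and plasmacytoid cells formed a cluster of their own. The part of this difference in makeup in the following values was not tested. There Ccl4 fell from 714 to 41 CPM (log2 difference -4.14, adjusted p = 9.58e-08) and Ccl3 from 417 to 18.8 CPM (log2 difference -4.48, adjusted p = 1.17e-05). Cxcr3 rose from 13.7 to 95.6 CPM (log2 difference 2.76, adjusted p = 3.26e-07) and Cxcl16 from 8.2 to 74.2 CPM (log2 difference 3.18, adjusted p = 1.04e-06). In the monocytes of that clustering Ccl4 was 221 and 14.8 CPM (log2 difference -3.98, adjusted p = 3.3e-05) and Ccl3 fell as well (log2 difference -3.09, adjusted p = 1.91e-06), so both were lower at P3 with the dendritic cells apart.

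CCL24, a ligand of CCR3 that attracts eosinophils, was a macrophage product. Macrophage Ccl24 was 247, 188, 281, 166 and 167 CPM at E16.5 and 347, 311, 323 and 185 CPM at P3, with overlap (log2 difference 0.05, SE 0.29, adjusted p = 0.911). Its receptor Ccr3 in the same class was 3.01, 2.59, 0.82, 3.84 and 0.667 CPM at E16.5 and 35.6, 49.4, 15.1 and 19.3 CPM at P3, without overlap (log2 difference 3.48, SE 0.52, adjusted p = 0.0005). Ccr3 is best known from eosinophils and basophils, and the basophil and mast class held 1.74 ± 0.664 CPM and 7.33 ± 4.48 CPM. Eosinophil markers in the macrophage class summed to 55.2 to 94.4 CPM at E16.5 and 102 to 220.1 CPM at P3, and their part in the result was not tested. Mesenchymal Ccl24 was 34.8, 15.6, 39.5, 32.4 and 9.04 CPM at E16.5 and 7.21, 5.26, 4.06 and 0 CPM at P3 (log2 difference -2.72, SE 0.71, adjusted p = 0.00972). Without library B that difference was -2.71 (adjusted p = 0.0351). Macrophage markers in the mesenchymal class were 668 to 1023 CPM at E16.5 and 221 to 843 CPM at P3, and their part was not tested either.

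Macrophages fell into clusters rich and poor in erythroid RNA, with 3907 and 784 cells at E16.5 and 2177 and 1973 at P3. The median of summed erythroid markers was 407017 CPM and 123780 CPM at E16.5 and 332467 CPM and 66197 CPM at P3 in the rich and poor clusters. Within the poor clusters 5 of 23 members rose and 8 fell, beside 22.1% and 24.0% of 9815 genes. The poor clusters held 14123 to 19015 UMIs per cell by library at E16.5 and 4896 to 7184 at P3. Their summed immediate early genes were 3127 to 4549 CPM at E16.5 and 1693 to 2476 CPM at P3. The part of these differences in the following values was not tested. The ligands that fell in the whole class fell here as well. Ccl3 went from 104 to 17.9 CPM (log2 difference -2.68, adjusted p = 8.21e-07), Ccl4 from 107 to 21.9 CPM (log2 difference -2.42, adjusted p = 1.46e-06) and Cxcl2 from 419 to 95.9 CPM (log2 difference -2.27, adjusted p = 0.000143). Macrophage Ccl2 went from 144 to 24.2 CPM (log2 difference -2.64, adjusted p = 0.00537) and Cxcl1 from 54.3 to 8.48 CPM (log2 difference -2.80, adjusted p = 0.00325). Among the genes that rose in the class, Ccr3 went from 4.64 to 45.3 CPM (log2 difference 3.26, adjusted p = 0.00202), Cxcl16 from 33.2 to 125 CPM (log2 difference 1.78, adjusted p = 1.55e-05) and Ccl6 from 137 to 457 CPM (log2 difference 1.60, adjusted p = 0.000258). Cxcr3 went from 2.49 to 8.61 CPM (log2 difference 1.64, adjusted p = 0.000263). Ccl24 was 385 and 443 CPM and Cx3cr1 285 and 386 CPM, and neither passed (adjusted p = 0.919 and 0.495).

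CX3CR1, the fractalkine receptor of monocytes and macrophages, was 117, 113, 148, 137 and 103 CPM at E16.5 and 277, 362, 175 and 162 CPM at P3 in macrophages (log2 difference 0.56, SE 0.29, adjusted p = 0.139). Scaled by total UMIs, Cx3cr1 rose in 4 of 9 classes tested, against 2 with TMM. Monocyte Cx3cr1 fell from 50.1 to 33.2 CPM (-0.74, adjusted p = 0.00256). XCL1, made by NK and T cells, attracts the dendritic cells that carry XCR1. Xcl1 in T and NK cells was 125, 156, 138 and 101 CPM at E16.5 (without Jag1+/+ replicate 1) and 92.3, 53.8, 98.9 and 99.4 CPM at P3, with P3 library B the lowest (log2 difference -0.90, SE 0.21, adjusted p = 0.00173). At a limit of 10% mitochondrial UMIs it did not pass (adjusted p = 0.129). Summed over the whole liver Xcl1 rose (0.247 to 1.48 CPM), against the direction within its class. Xcr1 in P3 conventional dendritic cells was 27.6, 28.1, 153 and 53.8 CPM, a spread in which library C was highest. At E16.5 no class mean exceeded 1 CPM, and the highest single value was 2.62 CPM in monocytes of Jag1Ndr/Ndr replicate 1, while with finer clusters E16.5 dendritic cells were at 0.703 to 9.41 CPM.

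Receptors that place lymphocytes were found in B cells and dendritic cells. CCR7 leads lymphocytes into lymphoid tissue, and Ccr7 in B precursors was 12, 9.17, 7.39, 12.9 and 11.2 CPM at E16.5 and 32.9, 33.6, 32.1 and 33.4 CPM at P3 (log2 difference 1.35, SE 0.15, adjusted p = 6.72e-06). The P3 libraries spread over less than 2 CPM. The makeup of the B precursor class differed between the stages as given above, and its part in the Ccr7 result was not tested. The later B class, formed at P3 alone, held 56.2 ± 6.21 CPM of Ccr7, 24.9 ± 4.96 CPM of Cxcr5, the follicle receptor, and 12.4 ± 3.18 CPM of Ccr6. Cxcr5 overlaps Bcl9l on the other strand. CCR9 answers the thymic and gut ligand CCL25. Ccr9 in P3 plasmacytoid dendritic cells was 30.6, 45.5, 29.8 and 30.5 CPM, in a class also led by progenitor genes, and 88.5 to 153 CPM in the plasmacytoid cluster of the finer clustering, which had neither Cd34 nor Hmga2 among its 10 leading genes. P3 conventional dendritic cells held 14.4 ± 4.51 CPM. At E16.5 Ccr9 was 13.3 ± 9.04 CPM in the monocyte class, which then held dendritic markers, and 12 ± 5.66 CPM in basophil and mast cells, and it fell in both (adjusted p = 0.000188 and 0.000871), to 0.139 and 0 CPM. In finer clusters, monocytes without the dendritic cells held 0.652 CPM at E16.5. Conventional dendritic cells of that clustering went from 41.1 to 14.5 CPM (log2 difference -1.51, adjusted p = 0.00171), where the E16.5 class mixed markers of both dendritic types as described and P3 plasmacytoid cells stood apart. Plasmacytoid markers in the basophil and mast class were 187 to 301 CPM at E16.5 and 38.4 to 58.1 CPM at P3, and their part in the fall there was not tested.

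ACKR1, the Duffy antigen receptor, binds inflammatory chemokines on red cells and venular endothelium. Ackr1 was 35.1 ± 15 CPM and 38.4 ± 14 CPM in erythroid cells and 25.1 ± 12 CPM and 52.9 ± 28.2 CPM in endothelial cells, and passed in neither (adjusted p = 0.0635 and 0.191). It fell in 7 of 11 classes. In hepatocytes it was 19.7, 19.9, 21.2, 18.3 and 26.6 CPM at E16.5 and 0.783, 5.65, 9.4 and 4.55 CPM at P3 (log2 difference -2.88, SE 0.42, adjusted p = 8.3e-05). Erythroid markers in the hepatocyte class were 187956 to 414633 CPM at E16.5 and 31940.3 to 91825 CPM at P3, in B precursors 184362 to 315982 CPM at E16.5 and 19306 to 47944 CPM at P3, and in neutrophils 131357 to 238191 CPM at E16.5 and 20647 to 49088 CPM at P3. Their part in the falls of Ackr1 was not tested. Without P3 library A, which had the lowest value, the hepatocyte difference was -2.07 (adjusted p = 0.000305), and with finer clusters it was 0.48 (adjusted p = 0.220).

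The other genes of the pathway were read from 4 lists, without a test of the lists. Of genes with receptor-like or chemokine roles under other names, 22 of 85 pairs of a class and a gene rose and 15 fell (43.5%). Among them Cd74, the receptor of MIF, went from 4.9 to 113 CPM (log2 difference 4.06, adjusted p = 0.000188) in macrophages and Rarres2, the chemerin gene, from 43.3 to 529 CPM (log2 difference 3.31, adjusted p = 1.12e-08) in hepatocytes. Cd74 was also a leading gene of the P3 conventional dendritic and later B classes. The part of RNA from such cells in the macrophage values was not tested. Of signalling genes acting after the receptors, 104 of 270 rose and 53 fell (58.1%). Rgs1, which ends G protein signals, went from 92 to 6.46 CPM (log2 difference -4.05, adjusted p = 2.7e-07) in monocytes. Arrb1, an arrestin, went from 67.5 to 10.6 CPM (log2 difference -3.01, adjusted p = 7.99e-07) in B precursors, whose makeup differed between the stages. Enzymes and matrix genes that act on chemokines rose in 32 and fell in 17 of 94 pairs (52.1%), among them the serine proteases Ctsg, from 241 to 1708 CPM (log2 difference 2.79, adjusted p = 2.39e-09) in basophil and mast cells, where the markers of that class were higher at P3 as well, and Elane, from 204 to 958 CPM (log2 difference 2.14, adjusted p = 9.73e-06) in monocytes. The summed promyelocyte markers, a list of 6 genes that itself holds Elane and Ctsg, were 1272 to 1954 CPM at E16.5 and 3003 to 5619.5 CPM at P3 in the monocyte class, and their part in the Elane values was not tested. Other chemoattractant receptors rose in 27 and fell in 7 of 59 pairs (57.6%), among them Ltb4r1, a leukotriene B4 receptor, from 246 to 665 CPM (log2 difference 1.34, adjusted p = 3.59e-05) in neutrophils. These shares stand beside 44.1% of all pairs.

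A list of 12 immediate early and stress genes, added after the data were seen, fell in 80 and rose in 7 of 141 pairs (61.7%), beside 44.1% of all pairs (22.0% upward and 22.2% downward). Its sum in monocytes was 3416 to 4136 CPM at E16.5 and 1687 to 1982 CPM at P3, in macrophages 1394 to 1788 CPM at E16.5 and 1126 to 1618 CPM at P3, and in basophil and mast cells 2840.2 to 3768 CPM at E16.5 and 2133 to 3046 CPM at P3. Zfp36, whose product degrades chemokine and cytokine transcripts, went from 503 to 53.5 CPM (log2 difference -3.30, adjusted p = 1.49e-05) in monocytes. In monocytes 10 of the 12 fell, like Ccl2, Ccl3, Ccl4 and Cxcl2, 1 rose (Ier2, log2 difference 0.35, adjusted p = 0.0399) and 1 did not pass (Nfkbia), beside 25.4% of all genes in that class that fell and 25.1% that rose. Their part in the results of the chemokines was not tested.

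The comparison of Jag1Ndr/Ndr with the other genotypes could be tested at E16.5, with 2 libraries against 3. No member passed in any class (0 of 208 pairs, and 0 with DESeq2), and 15 pairs (7.21%) had an unadjusted p under 0.05 in edgeR, beside 1.81% of all pairs. Without a filter on low counts, or without the shared library, pairs within classes did pass, as given in the last section. In the whole liver 0 of 40 members passed (0 with DESeq2) and 3 (7.5%) had an unadjusted p under 0.05, beside 1.07% of all genes. Over all genes, 0.00161% of 123929 pairs passed, and 0% of 16262 genes in the whole liver. The 3 pairs of smallest p with a mean of at least 20 CPM are given as values. Endothelial Ccl24 was 32.4, 34.1 and 39.6 CPM in the 3 other libraries and 17.5 and 21.4 CPM in the 2 Jag1Ndr/Ndr libraries (log2 difference -0.90, SE 0.26, unadjusted p = 0.00348, adjusted p = 1). Monocyte Ccr9 was 10.3, 8.32 and 7.49 CPM in the 3 other libraries and 11.3 and 29.3 CPM in the 2 Jag1Ndr/Ndr libraries (log2 difference 1.20, SE 0.36, unadjusted p = 0.0109, adjusted p = 1). Macrophage Ccl7 was 12.5, 11 and 3.69 CPM in the 3 other libraries and 39.3 and 14.8 CPM in the 2 Jag1Ndr/Ndr libraries (log2 difference 1.66, SE 0.55, unadjusted p = 0.0235, adjusted p = 1). The pairs were picked by smallest p, so the lack of overlap between the groups in them is no separate result. For Ccr9 and Ccl7, 1 homozygous library was far above the other. Without Jag1Ndr/Ndr replicate 1, Ccr9 passed (1.72, adjusted p = 0.0225), and without replicate 2, Ccl7 passed (2.27, adjusted p = 0.0231), each resting on 1 homozygous library whose spread is taken from the others. Without the other homozygous library the differences were 0.38 for Ccr9 and 0.69 for Ccl7, and neither passed. With finer clusters monocytes held 0.394 to 0.953 CPM of Ccr9 in the 5 libraries, and dendritic cells 33.5, 33.3 and 26.1 CPM in the 3 other libraries and 38.6 and 74.2 CPM in the 2 Jag1Ndr/Ndr libraries. Plasmacytoid markers in the monocyte class were 987 CPM in Jag1Ndr/Ndr replicate 2 and 390.4 to 711 CPM in the other libraries, and their part was not tested. Macrophage markers in the endothelial class were 1101 CPM in Jag1Ndr/Ndr replicate 1 and 1580 to 1742 CPM in the other libraries, and their part in the Ccl24 values was not tested. Mesenchymal Cxcl12 was 276, 363 and 179 CPM in the 3 other libraries and 231 and 199.6 CPM in the 2 Jag1Ndr/Ndr libraries (log2 difference -0.15, SE 0.23, unadjusted p = 0.532, adjusted p = 1). In mesenchymal cells 4 of 13 members (30.8%) had an unadjusted p under 0.05, beside 3.35% of all genes in that class, and the median log2 difference was -0.70 over the members tested and -0.00 over all genes. Their means lay under 20 CPM, so they were chosen after their values were seen. Mesenchymal Ccl4 was 19.9, 18.7 and 14.4 CPM in the 3 other libraries and 3.85 and 1.81 CPM in the 2 Jag1Ndr/Ndr libraries (log2 difference -2.52, SE 0.48, unadjusted p = 1.51e-05, adjusted p = 0.312). Mesenchymal Ccr2 was 8.52, 15.6 and 3.59 CPM in the other libraries and 0.771 and 0 CPM, from 1 and 0 UMIs, in the Jag1Ndr/Ndr libraries (unadjusted p = 0.000427 in edgeR, adjusted p = 1.00). Ccl9 there was lower without overlap (log2 difference -1.35, SE 0.52, unadjusted p = 0.0156, adjusted p = 1), and Ccl2 was higher on average with overlapping groups (log2 difference 1.59, SE 0.44, unadjusted p = 0.0013, adjusted p = 1). Macrophage markers in the mesenchymal class were 775 to 1023 CPM in the other libraries and 923 and 668 CPM in the Jag1Ndr/Ndr libraries, monocyte markers 189 to 354 CPM and 204 and 168 CPM, and their part was not tested. None of the 4 other pathway lists nor the immediate early list had a gene that passed.

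**Figure D5:**
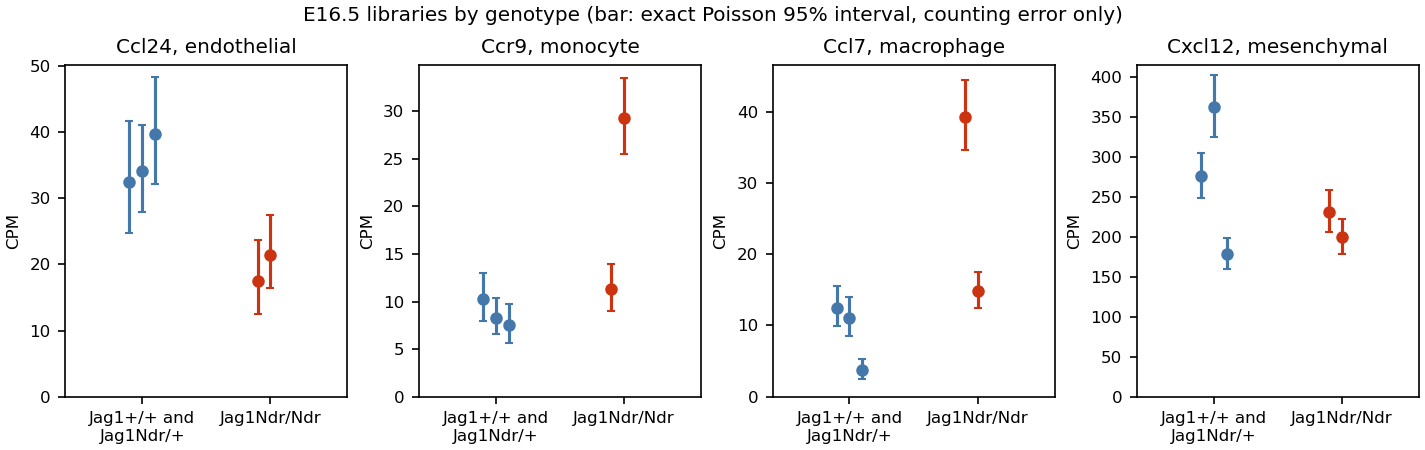
CPM of 4 pairs of a member and a class in each library, with exact 95% Poisson intervals of the count. Jag1Ndr/Ndr libraries at E16.5 lie under the others for endothelial Ccl24 and above them for Ccr9 in monocytes and Ccl7 in macrophages, and mesenchymal Cxcl12 overlaps.

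At P3 library C, labelled Jag1Ndr/Ndr, and library D, labelled Jag1Ndr/+, are 1 library each, so their difference has no replicate check. Exact 95% Poisson intervals, which cover counting error only, did not overlap for 14 of the 29 described members in the whole liver (48.3%). They did not overlap for 42.5% of all 17399 genes with a UMI in either library, and for 58.4% of the 12245 genes with at least 78 UMIs in both together, the count of the least abundant described member. Library C was higher in 8 (Xcl1, Cxcr3, Ccl24, Xcr1, Ccl5, Ccl6, Ccl3 and Ccl4) and D in 6 (Cxcl2, Cxcl9, Cxcr5, Cxcl16, Ccl9 and Ccr7). Macrophage Ccl24 was 323 CPM (305 to 341) in C and 185 CPM (169.9 to 201) in D. Xcr1 in conventional dendritic cells was 153 CPM (132 to 176) in C and 53.8 CPM (40.6 to 69.8) in D, and Cxcl9 in the same class was 15.8 CPM (9.66 to 24.4) in C and 95.1 CPM (77.3 to 116) in D. Ccl4 in T and NK cells was 252 CPM (230.2 to 276) in C and 63.1 CPM (48 to 81.4) in D. The values of A and B for Ccl24 in macrophages, 347 and 311 CPM, show the spread of that gene alone between libraries of unclear genotype. By ratio A and B were farther apart for Cxcl9 in conventional dendritic cells, as given above.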

How the data were processed

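The deposited matrices hold UMI counts per gene and barcode, not normalized. Per the submitters' processing notes they were made with Cell Ranger 2.1.1 on mm10 and analysed with R 4.1.2 and Seurat. Per the file headers the software version was 3.1.0 at E16.5 and 3.0.2 at P3. Coordinates and overlaps are those of GENCODE on GRCm38, the same build as mm10, with a place for 60 of the 67 rows.

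Barcodes under 1000 UMIs or over 15% mitochondrial UMIs were removed, and doublets were called with Scrublet per library (9.85 to 13.4% of the barcodes of an E16.5 library, 4.11 to 9.50% of a P3 library) and left out. Cells were clustered per stage with scanpy 1.11.5 and Leiden (leidenalg 0.10.2, resolution 1, with 2 as the alternative), and clusters were named from marker lists. Named cells numbered 15925 to 24659 per library at E16.5 and 13441 to 18597 at P3. The T cell and NK lists, and the neutrophil precursor and mature neutrophil lists, were joined after the clusters were seen and before any comparison was tested. Counts were summed per library and class (at least 20 cells) and tested with edgeR 4.0.16 (quasi-likelihood, TMM scaling, low counts filtered) in R 4.3.3, with Benjamini-Hochberg adjustment over all pairs of a class and a gene, or over all genes in the whole liver, at 0.05. Fitted log2 differences include TMM scaling and so can differ from ratios of CPM. The tests were checked on simulated counts. The members and all lists were chosen with earlier results of these data known. One member is counted throughout and its values are not reported here.

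Named stage pairs were, in each class, up to 4 members that passed, whose libraries did not overlap and whose higher stage had a mean of at least 20 CPM, by size of the log2 difference (25 of 34 candidates). Genotype was tested at E16.5 alone, as 2 libraries against 3, because P3 libraries A and B have no clear genotype. Alternatives were DESeq2 1.42.0, no filter on low counts, a replicate block, other limits for UMIs (2000), mitochondrial share (10%) and cells (50), doublets kept, finer clusters, scaling by total UMIs, the macrophage clusters low in erythroid RNA, and leaving out each library in turn. The scaling by total UMIs and the macrophage clusters were chosen after seeing the data.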

Additional observations from a re-analysis of the deposited data

Results flagged for a closer look

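In 9 of 89 groups of 4 or 5 libraries, one library lay farther from the rest than Dixon's 95% limit, which chance passes in about 1 group in 20. In E16.5 Jag1Ndr/Ndr replicate 1, Ccl2 was 97.1 CPM in macrophages (39.1 to 52.6 CPM in the other 4 libraries) and 123 CPM in monocytes (41.3 to 50.7 CPM). The same library held 158 CPM of Ccl6 in monocytes (94.6 to 112 CPM in the others), 257 CPM of Cxcl10 in endothelial cells (39.4 to 79.3 CPM) and 2.62 CPM of Xcr1 in monocytes (0.272 to 0.848 CPM). Its monocyte class also had the highest summed macrophage markers, 526 CPM against 196 to 319 CPM in the other E16.5 libraries, and their part in these values was not tested. Conventional dendritic markers there were 1007 CPM, against 568 to 715 CPM, and with finer clusters its Xcr1 was 0.171 CPM in monocytes and 9.41 CPM in dendritic cells. In E16.5 Jag1Ndr/Ndr replicate 2, Ccr9 in monocytes was 29.3 CPM, against 7.49 to 11.3 CPM in the other 4 libraries. With finer clusters the monocytes of the 5 libraries held 0.394 to 0.953 CPM of Ccr9 and the dendritic cells 26.1 to 74.2 CPM, the highest in this library. In P3 library B, Ccl3 in basophil and mast cells was 647 CPM (844 to 881 CPM in the other 3), Ccr9 in plasmacytoid dendritic cells 45.5 CPM (29.8 to 30.6 CPM) and Xcl1 in T and NK cells 53.8 CPM (92.3 to 99.4 CPM).

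Ccr1 differed in both directions, with every library of one stage on one side. Its log2 difference (P3 minus E16.5) was 1.91 in basophil and mast cells and -0.739 in neutrophils. The difference between these classes was not tested.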

How the results depend on the processing

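The 25 named stage pairs were recomputed under 446 combinations with an alternative, and 432 kept both direction and call, 12 kept the direction and lost the call and 2 changed sign. Of the pairs, 19 kept direction and call under every alternative run. With finer clusters, Cxcl12 in endothelial cells was -0.284 (adjusted p = 0.687) and Ackr1 in hepatocytes 0.479 (adjusted p = 0.220), and the cause was not tested. Calls were lost for Ccr1 in neutrophils in 8 settings, for Cxcl2 in basophil and mast cells in 2, and for Cxcl2 in endothelial cells and Xcl1 in T and NK cells in 1 each. Members passing in the stage comparison within classes numbered 83 to 98 when a library was left out and 84 to 106 under other alternatives, except 140 of 526 pairs without a filter on low counts, where more pairs were tested. In the whole liver they numbered 22 to 27 when a library was left out and 24 to 28 otherwise. Among the alternatives, shares of all genes are given above for scaling by total UMIs and the macrophage clusters alone. The other counts of this section therefore cannot be set against all genes. The genotype comparison within classes gave 0 to 2 when a library was left out (1 without the shared library, Ccl4 in mesenchymal cells, 2 without either homozygous library), 8 of 472 pairs without a filter, and 0 under the other alternatives and throughout in the whole liver. Without a filter Ccr9 in monocytes was 1.19 (adjusted p = 0.000547), beside 1.20 in the main fit, where it did not pass. The Jag1Ndr/Ndr libraries were at 11.3 and 29.3 CPM. With finer clusters, which set the dendritic cells apart, monocytes held 0.394 to 0.953 CPM of Ccr9 at E16.5.

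With the replicate number as a block, 95 stage pairs within classes and 24 members in the whole liver passed, and 0 in the genotype comparison. Ccr1 in neutrophils lost its call with the block (adjusted p = 0.0589). The numbers were not shown to pair the libraries. Of 14 same-numbered pairs 3 had a correlation over 0.1, with a range of -0.165 to 0.215. Libraries were centred on their group means, so correlations with the Jag1Ndr/Ndr libraries mirror each other, and the check cannot settle pairing. At a limit of 10% mitochondrial UMIs Cxcl2 in endothelial cells was -3.56. The few cells per library limit what Cxcl2 in basophil and mast cells and Ccl24 in mesenchymal cells can show.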
